A study of Rattus norvegicus with 31 samples.

Results

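Interferon-stimulated genes were followed in the livers of rats exposed to 3 pesticides and their binary mixtures. The group consisted of the 9 genes Irf7, Isg15, Ifit2, Ifit3, Rsad2, Mx1, Mx2, Oas1a and Oasl, which were chosen by symbol, of 26312 genes counted. Each of the 9 had a single row in the table of counts and in the table of normalized counts, and all 9 passed the filter on low counts, which kept 19904 genes with 2 or more counts in total over the 31 libraries. The animals were young adult female Wistar rats (Crl:WI), which received the vehicle or the compounds daily by oral gavage for 28 days. The 8 control rats received only the vehicle, aqueous carboxymethyl-cellulose, in which the compounds were suspended for all other rats. The neonicotinoid insecticides thiacloprid (THI) and clothianidin (CTD) were given at 108 mg/kg bw/day (4 rats) and 288 mg/kg bw/day (3 rats), and the azole fungicide imazalil (IMZ) at 93 mg/kg bw/day (4 rats). The mixtures, with 4 rats each, were THI + IMZ at 54 and 46 mg/kg bw/day, THI + CTD at 54 and 134 mg/kg bw/day and IMZ + CTD at 46 and 135 mg/kg bw/day. RNA was taken from a piece of whole liver and sequenced as total RNA, so that hepatocytes and all other liver cells contribute to each value.

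Interferons are secreted proteins by which cells warn each other of viruses. Binding of type I interferon to its receptor activates JAK kinases. Downstream of them, a complex that holds STAT2 and IRF9 binds the interferon-stimulated response element (ISRE) in promoters and switches on a large set of genes, many of them coding for antiviral proteins. In liver, hepatocytes as well as Kupffer cells, the resident macrophages, respond in this way, and healthy tissue keeps a low level of these transcripts. Among the 9 genes, Irf7 codes for a transcription factor that amplifies the production of interferon, and Isg15 for a ubiquitin-like modifier. Ifit2 and Ifit3 code for proteins that bind viral RNA or the complexes that do so, Rsad2 for viperin, an enzyme that makes a chain-terminating nucleotide, and Mx1 and Mx2 for dynamin-like GTPases. Oas1a belongs to the oligoadenylate synthetases, which activate RNase L, and Oasl to their relatives.

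The promoters are shown since the ISRE is the element through which interferon-stimulated genes are linked to the interferon receptor. RefSeq windows of 300 bases (250 before to 50 after the transcription start, assembly GRCr8) matched 6 of the 9 genes by symbol, namely Irf7, Ifit3, Rsad2, Mx1, Oas1a and Oasl. The core of the ISRE was searched on both strands as 2 copies of GAAA with any 2 bases between them, which read as TTTC with the same spacing on the opposite strand. It occurred in 4 of the 6 windows, compared with 3.92% of 33469 promoter windows of the same length. The 250 bases before the start of these 4 genes are given 5′ to 3′ in the direction of the gene, with the matched bases in capitals.
Irf7 (chr1:205800024-205800273, minus strand): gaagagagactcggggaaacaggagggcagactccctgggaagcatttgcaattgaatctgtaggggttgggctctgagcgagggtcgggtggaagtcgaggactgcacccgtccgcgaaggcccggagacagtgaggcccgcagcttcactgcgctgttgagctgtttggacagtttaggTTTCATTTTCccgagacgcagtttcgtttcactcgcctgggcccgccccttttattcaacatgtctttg
Ifit3 (chr1:241527076-241527325, plus strand): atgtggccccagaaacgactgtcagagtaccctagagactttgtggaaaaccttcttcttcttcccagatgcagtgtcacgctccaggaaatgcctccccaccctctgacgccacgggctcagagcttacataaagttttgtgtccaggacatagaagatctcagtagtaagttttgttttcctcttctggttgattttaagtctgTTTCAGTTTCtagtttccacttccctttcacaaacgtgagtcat
Rsad2 (chr6:48788121-48788370, minus strand): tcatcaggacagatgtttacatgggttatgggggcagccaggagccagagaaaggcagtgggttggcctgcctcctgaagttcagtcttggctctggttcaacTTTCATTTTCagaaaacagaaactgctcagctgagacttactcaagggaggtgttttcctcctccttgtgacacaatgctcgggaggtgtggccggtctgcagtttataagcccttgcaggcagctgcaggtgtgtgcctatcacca
Oas1a (chr12:41330216-41330465, plus strand): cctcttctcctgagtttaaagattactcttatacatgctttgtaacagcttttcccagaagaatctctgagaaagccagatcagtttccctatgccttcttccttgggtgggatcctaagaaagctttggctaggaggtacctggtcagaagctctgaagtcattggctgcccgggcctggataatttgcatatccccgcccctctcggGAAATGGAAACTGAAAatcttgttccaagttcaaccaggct
In Irf7, Ifit3 and Rsad2 the match lay on the opposite strand, from 69 to 60, from 44 to 35 and from 147 to 138 bases before the start. Oas1a held 2 matches on its own strand, from 41 to 32 and from 35 to 26 bases before the start, which overlap. The letters were not found in the windows of Mx1 and Oasl. Of 54 other interferon-stimulated genes with a window, from a list compiled for this comparison, 35 had a match. A match is a stretch of letters, and no binding was measured here.

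Expression is given in CPM, the counts of a gene relative to the size of the library after TMM scaling, which makes levels of the same gene comparable between rats. The libraries held between 31.8 M and 101 M counts. Those of the controls were deeper (median 60.5 M) than those of the treated rats (median 40.2 M). The counts behind the CPM of the 9 genes were moderate. In the group with the lowest levels, THI + IMZ, they ran from 22 to 35 for Oasl, from 117 to 258 for Irf7 and from 534 to 754 for Ifit2. The library of THI replicate 1 stood apart, with the highest level of all 31 rats for 8 of the 9 genes, and the results for THI are also given without it. Oas1a has several near-identical neighbours in the rat genome, so its counts depend on how reads were assigned among the copies.

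Treatment with THI + IMZ was the only one of the 6 treatments after which genes of the group passed the test against control. Irf7, Isg15, Mx1, Mx2 and Oasl fell (5 of 9, all lower), to between 21.8% and 33.2% of the control level. Of all 19904 genes tested, 1.18% passed the same threshold, and 0.332% passed it with a lower level. The log2 fold changes of all 9 genes were below 0, from -2.20 for Mx2 to -0.37 for Ifit2, with a median of -1.66 compared with -0.02 over all genes. All 9 had an unadjusted p under 0.05, as had 11.1% of all genes. The test was the quasi-likelihood test of edgeR with Benjamini-Hochberg adjustment over all genes and a threshold of 0.05. In tissue, fewer cells that express a gene and less RNA per cell cannot be told apart.

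The transcription factor gene Irf7 ranged in the 8 controls from 6.51 to 22.3 CPM with a median of 12.85 CPM. In the 4 livers of THI + IMZ it was 4.57, 3.60, 3.03 and 5.45 CPM, and thus each of them lay below the lowest control. The log2 fold change was -1.68 ± 0.36 (SE, edgeR adjusted p = 0.0134), which corresponds to 31.1% of control.

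Isg15, the ubiquitin-like modifier, ranged from 1.95 to 5.87 CPM in controls with a median of 4.28 CPM. The values of THI + IMZ were 1.22, 1.02, 1.35 and 1.73 CPM, again without overlap. Its log2 fold change was -1.59 ± 0.38 (SE, edgeR adjusted p = 0.0255).

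Among the Mx genes, Mx2 showed the most negative fold change of the 9. In controls it ranged from 6.66 to 48.6 CPM with a median of 22.0 CPM, a wide spread in which replicates 1 and 2 were low at 6.66 and 8.75 CPM. THI + IMZ gave 4.45, 3.52, 4.72 and 7.48 CPM, so that the last of these rats exceeded the lowest control. The log2 fold change of Mx2 was -2.20 ± 0.45 (SE, edgeR adjusted p = 0.00883). Mx1 was measured at 2.26 to 8.18 CPM in controls (median 4.50 CPM) and at 2.06, 1.24, 1.06 and 1.42 CPM in THI + IMZ, without overlap. Its log2 fold change was -1.66 ± 0.41 (SE, edgeR adjusted p = 0.0374).

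Of the oligoadenylate synthetase genes, Oasl fell and Oas1a did not pass the test. Oasl ranged from 0.984 to 3.59 CPM in controls with a median of 2.30 CPM, and was 0.796, 0.591, 0.596 and 0.739 CPM in THI + IMZ. All 4 rats lay below the controls, and the log2 fold change was -1.67 ± 0.40 (SE, edgeR adjusted p = 0.0253). Oas1a spread more widely among controls, from 1.20 to 8.82 CPM (median 4.24 CPM). The values of 2.32, 1.16, 0.933 and 1.16 CPM in THI + IMZ overlapped with them. Despite a log2 fold change of -1.72 ± 0.53 (SE), its edgeR adjusted p was 0.127.

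The remaining genes did not pass the test. Ifit3 was measured at 1.55, 1.05, 1.61 and 1.44 CPM in THI + IMZ and at 1.79 to 4.67 CPM in controls (median 2.60 CPM). Rsad2 was nearly constant in this mixture, with 1.12, 1.16, 1.17 and 1.12 CPM, below controls of 1.47 to 3.41 CPM (median 2.15 CPM). Neither overlapped with the controls, but the adjusted p was 0.0875 for Ifit3 (log2 fold change -1.04 ± 0.30) and 0.0762 for Rsad2 (-0.98 ± 0.27) in edgeR. For Ifit2 the smallest difference was seen, with 17.1, 14.3, 19.5 and 13.1 CPM compared with 12.8 to 25.4 CPM in controls (median 21.4 CPM), ranges that overlapped. Its log2 fold change was -0.37 ± 0.15 (SE, edgeR adjusted p = 0.315).

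**Figure D1:**
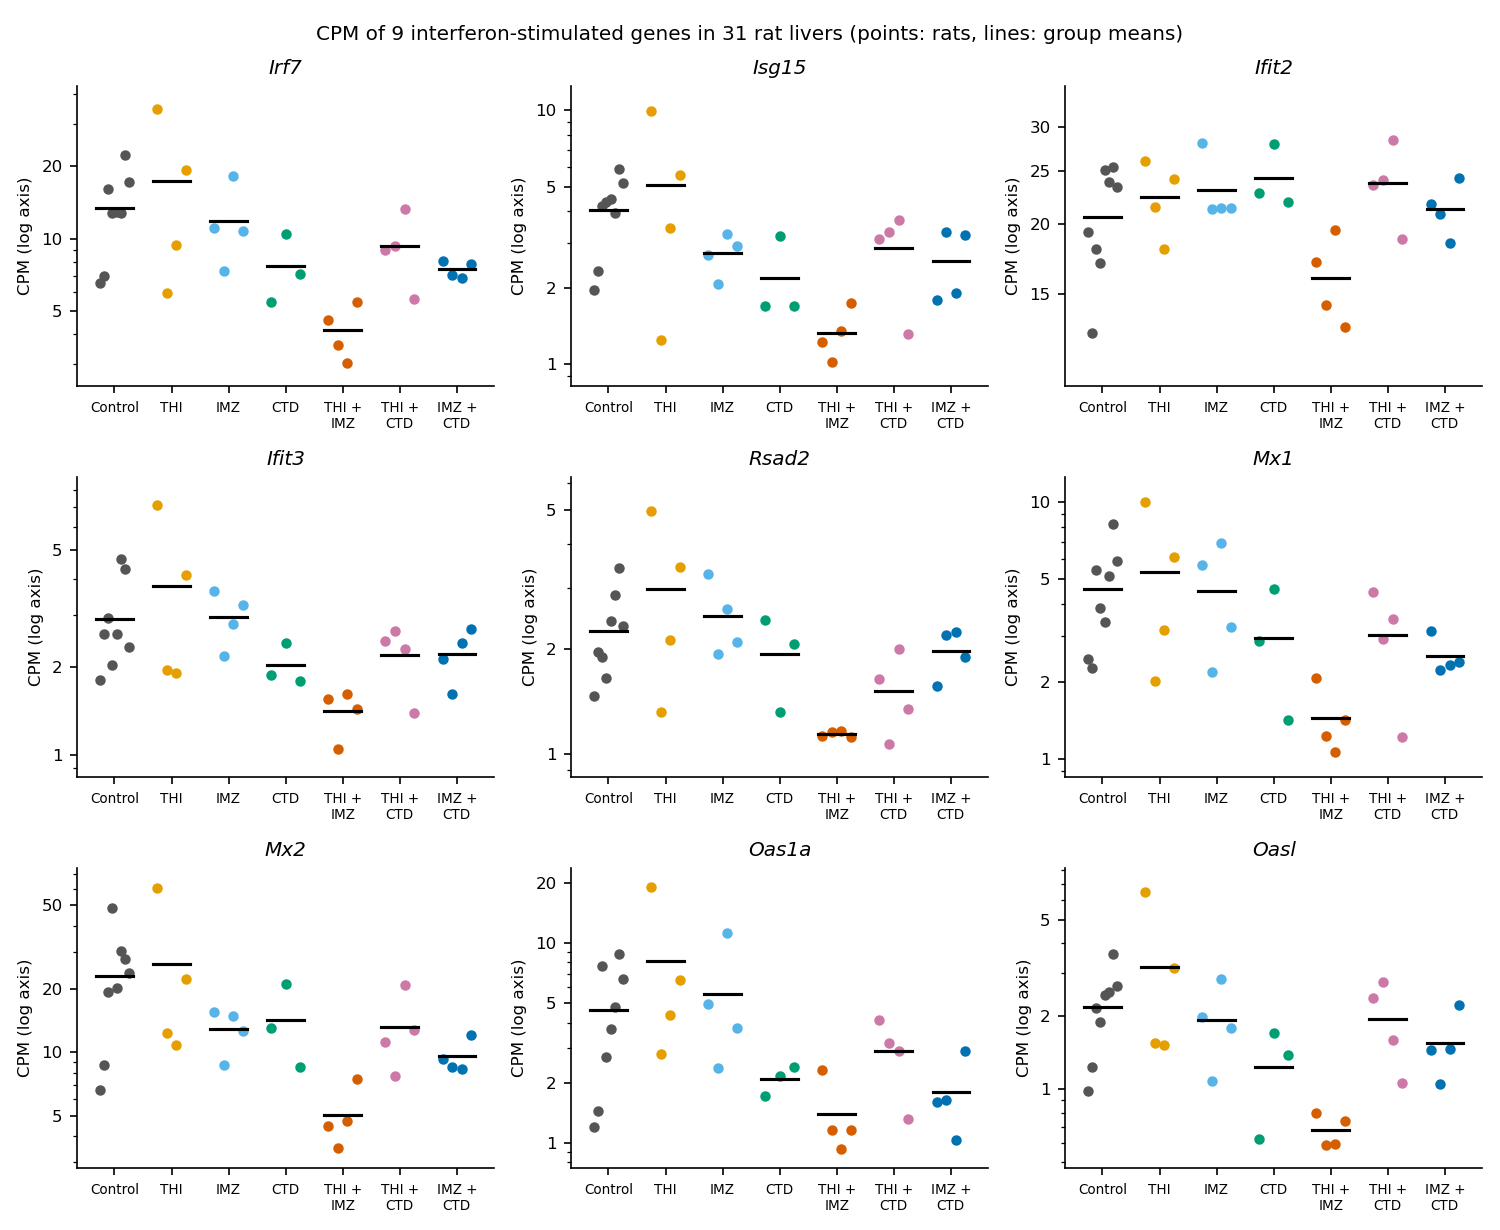
CPM on a log axis of each of the 9 genes in every rat (points) of the 7 groups, with the group mean as a line; 8 control rats, 3 rats on CTD and 4 on every other treatment. The 4 rats of THI + IMZ lie below all controls for Irf7, Isg15, Ifit3, Rsad2, Mx1 and Oasl, and THI replicate 1 is the highest point in every panel but that of Ifit2.

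For 6 of the 9 genes (Irf7, Isg15, Ifit3, Rsad2, Mx1 and Oasl) every rat on THI + IMZ lay below every control, a pattern shown by 0.663% of all genes, while 0.794% lay entirely above the controls. None of the 9 separated from the controls in this way, in either direction, after the other 5 treatments. There the share of all genes that lay entirely below was 0.688% with THI, 0.553% with IMZ, 5.48% with CTD, 1.82% with THI + CTD and 1.01% with IMZ + CTD. Entirely above lay 0.734%, 0.713%, 5.33%, 2.14% and 1.61%, in the same order of treatments. The number of genes called for THI + IMZ depended on single rats. It was 1 without THI + IMZ replicate 3, 2 without replicate 2, and 3 without replicate 1 or replicate 4. Among the controls, leaving out replicate 7, the control with the highest level of Irf7, reduced it to 2 (Mx2 and Irf7). Leaving out THI replicate 1, which enters the estimate of the spread only, raised it to 7 by adding Ifit3 (adjusted p = 0.0368 in edgeR) and Rsad2 (adjusted p = 0.0431). Mx2 remained called in all 31 of these fits. With the Wald test of DESeq2, 8 of the 9 genes passed, all but Ifit2, as did 2.19% of all genes.

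The rats differed as a whole. When each gene was expressed as the log2 difference from the mean of the controls, the median over the 9 genes ran from -0.94 in control replicate 1 to 0.64 in control replicate 7. In THI replicate 1 it was 1.38, and in the 4 rats of THI + IMZ it was -1.02, -1.71, -1.70 and -1.19, lower than in any other of the 31 rats. The next lowest was THI + CTD replicate 4 with -0.97.

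**Figure D2:**
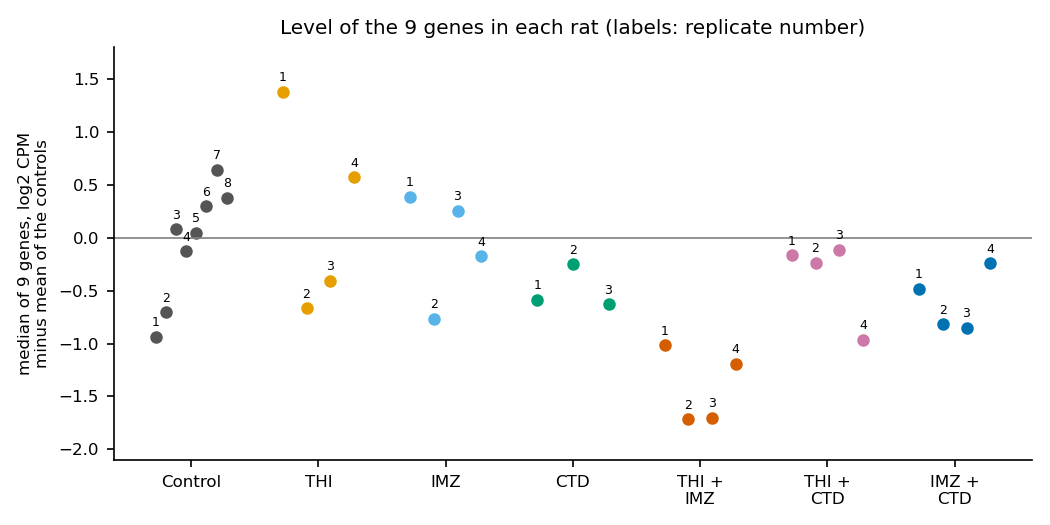
Median over the 9 genes of the log2 CPM minus the mean log2 CPM of the controls, for each rat, with the replicate number above the point; the 8 controls span -0.94 to 0.64. The 4 rats of THI + IMZ are the lowest of all 31, at -1.02 to -1.71, and THI replicate 1 is the highest, at 1.38.

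After the single compounds at full dose, none of the 9 genes passed the test of edgeR or that of DESeq2. With THI all 9 log2 fold changes were above 0 (median 0.36, from 0.12 for Ifit2 to 0.82 for Oas1a), and 0 of them had an unadjusted p under 0.05. In this comparison 0.543% of all genes passed the threshold and 8.68% had an unadjusted p under 0.05. For Irf7 the 4 rats on THI were measured at 34.6, 5.95, 9.40 and 19.4 CPM, and those for Isg15 at 9.97, 1.24, 3.45 and 5.57 CPM. These ranges extended beyond the controls on both sides. Mx2 was 60.1 CPM in THI replicate 1 and 12.4, 10.9 and 22.2 CPM in the other 3. Without THI replicate 1 the log2 fold changes of THI ran from -0.61 (Mx2) to 0.04 (Ifit2), and Irf7 was at -0.22.

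With IMZ the log2 fold changes ran from -0.84 for Mx2 to 0.28 for Oas1a, with a median of -0.02, equal to that over all genes. Mx2, at 15.5, 8.73, 14.9 and 12.7 CPM, was the only gene with an unadjusted p under 0.05 (0.0495, edgeR adjusted p = 0.616). Of all genes, 0.251% were called and 8.08% had an unadjusted p under 0.05. The Irf7 values of 11.1, 7.33, 18.3 and 10.8 CPM lay within the range of the controls.

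CTD changed many genes of the liver, 12.7% of those tested, but 0 of the 9. The log2 fold changes of 8 genes were below 0, with a median of -0.70 compared with -0.07 over all genes. The exception was Ifit2 with 0.23 ± 0.16 (SE). Irf7 and Isg15 had an unadjusted p under 0.05, a level reached by 25.2% of all genes. For Irf7, the 3 rats gave 5.44, 10.5 and 7.11 CPM, of which the first lay below the lowest control (log2 fold change -0.81 ± 0.38, adjusted p = 0.182 in edgeR). For Isg15 they gave 1.69, 3.18 and 1.69 CPM (-0.88 ± 0.40, adjusted p = 0.163), with 2 of the 3 below the lowest control. Oas1a was measured at 1.72, 2.17 and 2.40 CPM, within the lower part of the control range, with a log2 fold change of -1.13 ± 0.57 and an adjusted p of 0.213 in edgeR.

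**Figure D3:**
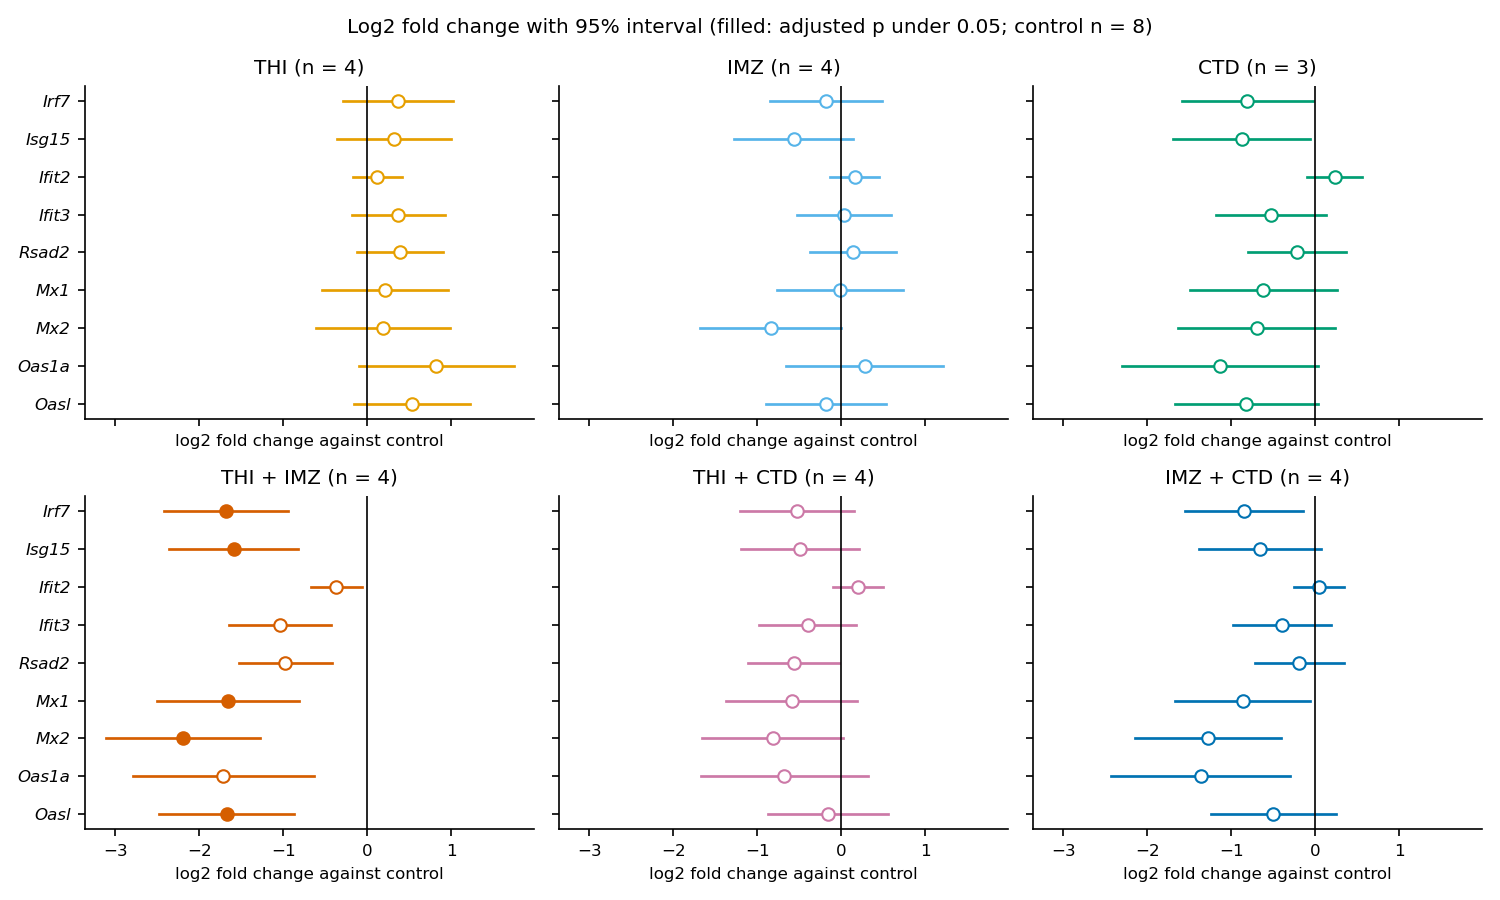
Log2 fold change of the 9 genes against the 8 controls after each of the 6 treatments (points) with its 95% interval (lines), filled where the edgeR adjusted p is under 0.05. Filled points occur in the panel of THI + IMZ, for Irf7, Isg15, Mx1, Mx2 and Oasl, whereas all points of THI, with replicate 1 included, lie above 0.

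THI and CTD belong to the same class of insecticides but were given at different doses, so their values stand side by side without a comparison. The log2 fold change of Irf7 against control was 0.36 ± 0.32 at 108 mg/kg bw/day of THI and -0.81 ± 0.38 at 288 mg/kg bw/day of CTD. For Oasl it was 0.54 ± 0.34 and -0.82 ± 0.41, and for Oas1a 0.82 ± 0.45 and -1.13 ± 0.57. The values of THI rested on its replicate 1, without which they were -0.22 for Irf7, -0.08 for Oasl and -0.01 for Oas1a. All treatments shared the same 8 controls.

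The median log2 fold changes of both mixtures with CTD lay between 0 and that of THI + IMZ. With THI + CTD, 0 of the 9 genes passed the test of edgeR or DESeq2, compared with 4.39% of all genes, and Rsad2 alone had an unadjusted p under 0.05 (17.6% of all genes). The median log2 fold change was -0.53. Rsad2 was 1.64, 1.07, 2.00 and 1.34 CPM, with replicates 2 and 4 below all controls (log2 fold change -0.57 ± 0.26, edgeR adjusted p = 0.252). The Irf7 level of these rats was 8.99, 9.30, 13.4 and 5.62 CPM, and the last of them was lower than any control.

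With IMZ + CTD, 0 of the 9 genes passed in edgeR and in DESeq2, while 1.46% of all genes did in edgeR. Irf7, Mx1, Mx2 and Oas1a had an unadjusted p under 0.05, which held for 12.8% of all genes, and the median log2 fold change was -0.66. Irf7 was closely grouped at 8.09, 7.07, 6.88 and 7.84 CPM, in the lower part of the control range (log2 fold change -0.85 ± 0.35, edgeR adjusted p = 0.276). Mx2 was measured at 9.32, 8.52, 8.38 and 12.1 CPM (-1.28 ± 0.43, adjusted p = 0.143) and Oas1a at 1.60, 1.65, 1.03 and 2.89 CPM (-1.36 ± 0.52, adjusted p = 0.231).

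In the order of the 7 group means, THI + IMZ came last for all 9 genes and THI first for 8 of them. The place of THI rested on replicate 1. Without that rat THI came first for 0 genes and the control for 5, with THI at 11.6 ± 6.99 CPM (SD, n = 3) for Irf7, 15.2 ± 6.19 CPM for Mx2 and 4.57 ± 1.88 CPM for Oas1a, whereas THI + IMZ was still last for all 9. With all rats, the order for Irf7 was THI with 17.3 ± 12.8 CPM (SD, n = 4), control with 13.4 ± 5.21 CPM (n = 8), IMZ with 11.9 ± 4.60 CPM (n = 4), THI + CTD with 9.31 ± 3.17 CPM (n = 4), CTD with 7.67 ± 2.56 CPM (n = 3), IMZ + CTD with 7.47 ± 0.586 CPM (n = 4) and THI + IMZ with 4.16 ± 1.07 CPM (n = 4). Neighbours in this order overlapped in range, except for IMZ + CTD and THI + IMZ. Ifit3, Mx1 and Mx2 likewise showed a gap only below the group next to last, which was CTD for Ifit3 and IMZ + CTD for the Mx genes. Such a gap separates neighbours only, and THI + IMZ still overlapped with groups of higher mean. Its highest rat had 5.449 CPM of Irf7, compared with a lowest rat of 5.436 CPM with CTD. For Ifit3 these values were 1.61 and 1.39 CPM and for Mx1 2.06 and 1.22 CPM, both against THI + CTD. For Mx2 they were 7.48 and 6.66 CPM, against the controls. For Isg15, Rsad2, Oas1a, Oasl and Ifit2 all neighbours overlapped. The exception to the leading place of THI was Ifit2, which had its highest mean with CTD (24.2 ± 3.21 CPM, n = 3) and a mean of 20.6 ± 4.53 CPM (n = 8) in controls. A test for any difference among the 7 groups (quasi-likelihood F test of edgeR) was passed by 7 of the 9 genes, all but Ifit2 (adjusted p = 0.159) and Ifit3 (adjusted p = 0.0536), and by 9.51% of all genes. Without THI replicate 1, 5 of the 9 passed. With all rats, Mx2 had the smallest adjusted p (0.00788).

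Each mixture was also compared with a dose-weighted sum, in which the log2 fold changes of both compounds at full dose were added after multiplication by the share of that dose in the mixture (0.5 for THI or IMZ, 0.47 for CTD). For THI + IMZ these sums ran from -0.33 (Mx2) to 0.55 (Oas1a), with a median of 0.14, while the mixture was measured at -2.20 to -0.37. The difference was negative for all 9 genes, with a median of -1.76 and a value of -2.27 ± 0.54 (SE) for Oas1a, -1.78 ± 0.36 for Irf7 and -1.85 ± 0.40 for Oasl. None of the 9 passed the adjusted threshold in edgeR, the lowest adjusted p being 0.0775 for Irf7 and Oasl, whereas all 9 had an unadjusted p under 0.05. Over all genes 0.0151% were called and 6.46% had an unadjusted p under 0.05. The Wald test of DESeq2 called 8 of the 9, all but Ifit2, and 0.271% of all genes (54 compared with 3 in edgeR). Without THI replicate 2, edgeR called 4, namely Irf7, Isg15, Rsad2 and Oasl. As the sum includes THI replicate 1, it was also computed without that rat, which changed the median difference to -1.47, the difference of Irf7 to -1.49 (adjusted p = 0.168) and that of Oas1a to -1.85 (adjusted p = 0.293).

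**Figure D4:**
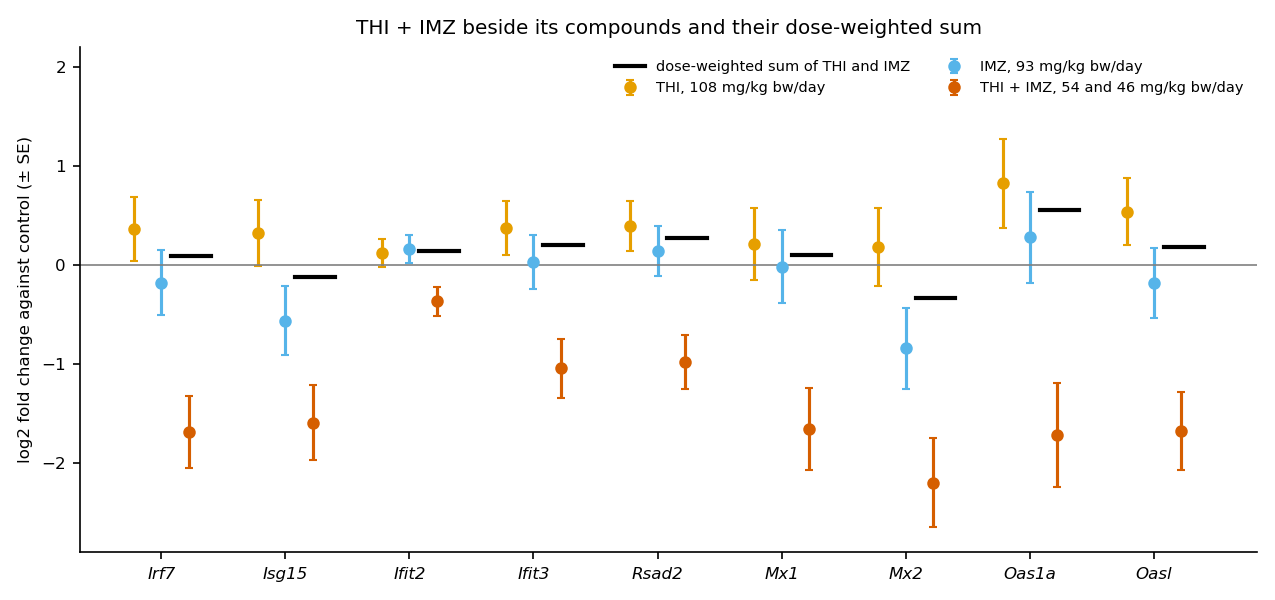
Log2 fold change against control with its SE for THI and IMZ at full dose and for the mixture THI + IMZ, and the dose-weighted sum of the compounds (black line), for each of the 9 genes. The mixture lies below the sum for every gene, with differences from -0.51 (Ifit2) to -2.27 (Oas1a).

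For the other mixtures the differences from the sum were smaller. They had a median of -0.34 for THI + CTD (-0.09 without THI replicate 1), with 1 gene (Rsad2, -0.66 ± 0.27) at an unadjusted p under 0.05 (9.66% of all genes), and of -0.17 for IMZ + CTD, with 0 genes (14.3% of all genes). In edgeR and in DESeq2, 0 of the 9 were called in either, where edgeR called 0.286% and 1.16% of all genes.

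At the same dose of THI or of IMZ, the mixtures could also be compared directly, in 2 contrasts chosen after the values had been seen. At 54 mg/kg bw/day of THI, the mixture with IMZ was lower than that with CTD for all 9 genes, by a median of -1.07 on the log2 scale. An unadjusted p under 0.05 was reached by 6 genes (10.1% of all genes), and 0 passed the adjusted threshold in edgeR (0.171% of all genes). DESeq2 called Oasl alone, and 1.14% of all genes. The difference was -1.51 for Oasl (95% interval -2.40 to -0.63, edgeR adjusted p = 0.154) and -1.16 for Irf7 (-1.97 to -0.35, adjusted p = 0.247). For Rsad2 it was -0.41 (-1.04 to 0.22). At 46 mg/kg bw/day of IMZ, the mixture with THI was again lower than that with CTD for all 9 genes, with a median of -0.79. Here 5 genes had an unadjusted p under 0.05 (8.97% of all genes) and 0 were called in edgeR (0.0653% of all genes) and in DESeq2. Oasl differed by -1.17 (95% interval -2.07 to -0.27, edgeR adjusted p = 0.415) and Oas1a by -0.35 (-1.59 to 0.88, adjusted p = 0.944).

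Over the 6 treatments taken as a mean, Mx2 was the only gene called (log2 fold change -0.94 ± 0.26, edgeR adjusted p = 0.0230), compared with 5.74% of all genes called and 2.87% called with a lower level. With Irf7, Isg15 and Mx1 there were 4 genes with an unadjusted p under 0.05 (23.2% of all genes). DESeq2 called Mx2 and Isg15, and 7.39% of all genes. In edgeR, Mx2 was no longer called without control replicate 4, 6 or 7 (adjusted p = 0.101, 0.0574 and 0.055). Without control replicate 1 or THI replicate 1, 3 genes were called (Mx2, Irf7 and Isg15), and without control replicate 2 there were 2 (Mx2 and Irf7).

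Within the groups, the genes varied together from rat to rat. After subtraction of the group means from the log2 CPM, the correlation of Irf7 with Isg15 over the 31 rats was r = 0.888 (Spearman's rho = 0.837). It was r = 0.866 with Mx1, 0.863 with Oasl and 0.862 with Oas1a. Each of these 4 had a two-sided permutation p of 1e-05, the smallest that 100000 permutations within groups can give (adjusted p = 2e-05 over 8 relations). Mx2 followed with r = 0.755 (permutation p = 0.00024, adjusted p = 0.00038) and Ifit3 with r = 0.707 (permutation p = 0.0019, adjusted p = 0.0026). The relation was weaker for Rsad2 with r = 0.629 (permutation p = 0.011, adjusted p = 0.013) and Ifit2 with r = 0.493 (permutation p = 0.013, adjusted p = 0.013). By rank, Rsad2 did not pass (rho = 0.39, permutation p = 0.081), and the other 7 did.

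The rats farthest from the median of Irf7 were THI replicates 1 and 2. Without them r was 0.831 for Isg15 and Oasl, 0.829 for Oas1a, 0.825 for Mx1, 0.693 for Mx2, 0.567 for Ifit3 and 0.506 for Ifit2. That of Rsad2 dropped to 0.404 (adjusted permutation p = 0.085), so its relation rested on these rats. In the 8 controls alone, r was 0.97 for Isg15, 0.962 for Oas1a, 0.955 for Mx1 and 0.952 for Oasl (adjusted permutation p of 0.0017 to 0.0037), and the other 4 did not pass.

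**Figure D5:**
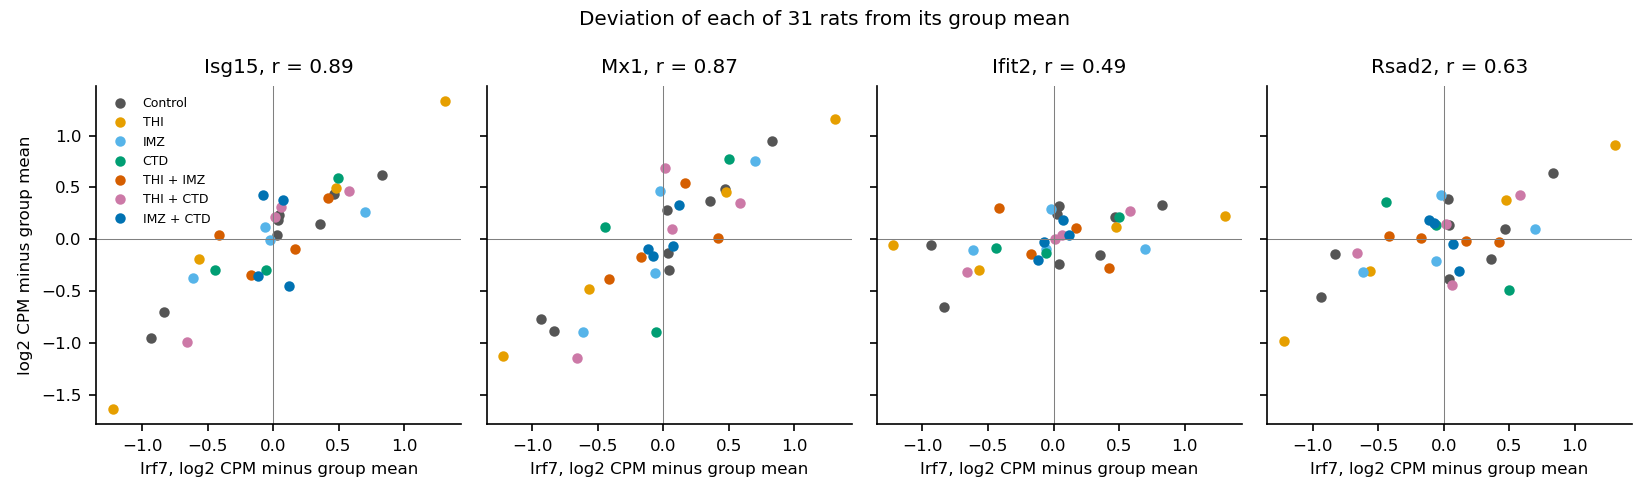
Deviation of each rat from its group mean on the log2 CPM scale, with Irf7 on the horizontal axis and Isg15, Mx1, Ifit2 or Rsad2 on the vertical axis, colored by group (31 rats). The points of Isg15 and Mx1 follow Irf7 closely (r = 0.89 and 0.87), those of Ifit2 and Rsad2 less so (r = 0.49 and 0.63), and THI replicate 1 lies at the upper right.

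The genes of the same pathway outside the 9 were compared by lists of their roles. Among 59 other interferon-stimulated effector genes tested, 7 fell after THI + IMZ and Cxcl9 rose. Together they were 13.6% of the list, compared with 1.18% of all genes. The median log2 fold change of this list was -0.41, 50 of the 59 were below 0 and 38 had an unadjusted p under 0.05 (64.4%, compared with 11.1% of all genes). Slfn5, a member of the Schlafen family, fell, with 2.39 to 3.70 CPM compared with 3.32 to 7.13 CPM in controls (log2 fold change -0.92 ± 0.18, edgeR adjusted p = 0.00655). Usp18, the protease that removes ISG15 from proteins and dampens receptor signaling, fell as well, with 0.967 to 2.34 CPM compared with 2.02 to 10.6 CPM in controls (-2.17 ± 0.46, adjusted p = 0.0116). The others that fell were Adar, Pml, Ifi47, Oas1b and Oasl2. Cxcl9, a chemokine better known as a target of interferon gamma, moved in the opposite direction to the 9 genes, with 7.83 to 18.1 CPM compared with 4.95 to 9.64 CPM in controls (0.91 ± 0.22, adjusted p = 0.0253).

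Cxcl9 also rose with IMZ (1.03 ± 0.21, adjusted p = 0.0224), with CTD (1.09 ± 0.23, adjusted p = 0.00162) and with THI + CTD (1.08 ± 0.21, adjusted p = 0.00246), in each case without a called change of the 9 genes. Of the same list, CTD called 7 genes (11.9%, compared with 12.7% of all genes). The 5 lower ones included Ifi27 (-0.59 ± 0.14, adjusted p = 0.00370) and Ifi27l2b (-0.71 ± 0.17, adjusted p = 0.00443), and Ifitm1 was higher (0.45 ± 0.16, adjusted p = 0.04996) in edgeR. IMZ + CTD called Bst2 alone, the gene of the virus-tethering protein tetherin (-0.56 ± 0.14, edgeR adjusted p = 0.0353). This was 1.69% of the list, near the 1.46% of all genes. With THI, 0 of the 59 were called in edgeR (0.543% of all genes), and 4 had an unadjusted p under 0.05 (6.78%, compared with 8.68% of all genes).

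Upstream of these genes, THI + IMZ gave 1 called gene among sensors, adaptors, receptors and signal transducers, and CTD gave 7. Of 20 sensors and adaptors, Ifih1, which codes for the RNA sensor MDA5 and is itself inducible by interferon, fell after THI + IMZ, with 28.1 to 29.7 CPM compared with 33.1 to 43.8 CPM in controls (log2 fold change -0.38 ± 0.09, edgeR adjusted p = 0.0273). This single call was 5% of the list, compared with 1.18% of all genes. Of 11 interferon genes searched for, Ifng alone passed the filter, with 0 to 0.0892 CPM over all rats, too few counts for a comparison. Among 15 genes of receptors and signal transducers, 0 were called for THI + IMZ by edgeR and 5 had an unadjusted p under 0.05 (33.3%, compared with 11.1% of all genes). CTD lowered 4 of them (26.7%, compared with 12.7% of all genes). They were Stat2 (-0.56 ± 0.10, edgeR adjusted p = 0.000204), the kinase gene Tyk2 (-0.48 ± 0.09, adjusted p = 0.000240), Irf5 and Irf8. Stat2 was 65.9 to 87.6 CPM in the 3 rats on CTD and 96.5 to 129 CPM in controls, without overlap. Of the sensors and adaptors CTD called 3 (15%), and 10 of the 20 had an unadjusted p under 0.05, compared with 25.2% of all genes. THI + CTD lowered 2 of the 15 receptors and transducers (13.3%, compared with 4.39% of all genes), Irf8 (-0.51 ± 0.15, adjusted p = 0.0405) and Irf5 (-0.55 ± 0.16, adjusted p = 0.0421). Of 11 negative regulators, Socs3, an inhibitor of cytokine receptor signaling, rose after THI + IMZ (1.59 ± 0.40, edgeR adjusted p = 0.0374), with a wide spread of 3.79 to 40.7 CPM among its 4 rats. It was the only one called (9.09% of the list, compared with 1.18% of all genes).

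The markers of other liver cells were measured beside the 9 genes, and their part in the result was not tested. After THI + IMZ, 0 of 13 markers of Kupffer cells and macrophages passed the test of edgeR. Of these 12 were below 0, with a median log2 fold change of -0.22, and 5 had an unadjusted p under 0.05 (38.5%, compared with 11.1% of all genes). Their summed level was 671.8 to 883.1 CPM in the mixture and 768.5 to 1187 CPM in controls. With CTD, 5 of the 13 fell (C1qa, C1qb, C1qc, Cd68 and Csf1r), compared with 12.7% of all genes called, and with THI + CTD 6 of the 13 fell (with Cd163 and Mrc1 but without Cd68), compared with 4.39% of all genes. In both treatments 8 of the 9 interferon-stimulated genes were below 0 and 0 were called. The summed level of the Kupffer cell markers was 593.5 to 936.2 CPM with CTD and 623.4 to 804.3 CPM with THI + CTD. Of 4 markers of plasmacytoid dendritic cells, a main source of type I interferon, 0 were called in THI + IMZ. Of these, 3 were below 0, with a median log2 fold change of -0.37. In controls Siglech, Ccr9 and Spib averaged 0.394, 0.176 and 0.436 CPM of a summed 5.54 CPM. In THI + IMZ they averaged 0.243, 0.0882 and 0.432 CPM. The sum was thus mostly the remaining marker and says little about these low genes. The sum of all 4 was 4.06 to 5.91 CPM compared with 4.61 to 5.88 CPM in controls.

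The same held for 10 markers of monocytes and neutrophils (17.5 to 21.4 CPM in THI + IMZ, 17.1 to 27.2 CPM in controls), for 15 of T and NK cells (16.3 to 19.1 and 17.7 to 27.2 CPM) and for 6 of B and plasma cells (7.62 to 13.1 and 10.5 to 17.2 CPM), with 0 called in edgeR and 2, 2 and 0 at an unadjusted p under 0.05 (11.1% of all genes). The sum of the T and NK cell list was mostly Cd4, with a mean of 18.67 CPM of 22.27 CPM in controls. It therefore says little about the other genes of that list. The markers of sinusoidal endothelial cells (9), stellate cells (8) and cholangiocytes (5) gave 0 calls as well, with 1, 3 and 0 at an unadjusted p under 0.05. Of 10 hepatocyte markers, Apoa1 was called (10%, compared with 1.18% of all genes), with a higher level (0.85 ± 0.18, edgeR adjusted p = 0.0121). The hepatocyte markers summed to between 182800 and 275600 CPM over all rats.

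To find the genes with the most similar pattern, the log2 CPM of the 9 genes were z-scored, averaged per rat and correlated over the 31 rats with each of 10867 genes that have a symbol and an average log2 CPM above 0. These coefficients are descriptive, and the rats of a group share its treatment. The highest belonged to Usp18 (r = 0.935), Irf9 (0.916), Oas1b (0.887), RT1-T24-3 (0.873), Slfn3 (0.873), Znfx1 (0.873), Ly6e (0.842), Lgals3bp (0.832), Trafd1 (0.824) and Adar (0.813). Of these 10, 6 were on the lists of the interferon pathway, and 12 genes in all exceeded r = 0.8. With the group means subtracted, r remained between 0.725 (Adar) and 0.904 (Irf9). Irf9 itself, which codes for the DNA-binding partner of STAT2, averaged 20.1 ± 4.15 CPM (SD, n = 8) in controls and 12.99 ± 0.664 CPM (n = 4) in THI + IMZ (log2 fold change -0.63 ± 0.17, edgeR adjusted p = 0.057). RT1-T24-3, an MHC class I gene, had the smallest adjusted p of the 10 in THI + IMZ (-1.20 ± 0.19, adjusted p = 0.000584). The lowest coefficients were those of Mterf and Cog6, both at -0.667.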

How the data were processed

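The authors prepared stranded total RNA libraries, trimmed the reads, aligned them to Rnor_5.0 and obtained counts per gene from STAR. Per the labels, STAR 2.5.2b, FastQC 0.11.5 and DESeq2 1.15.1 were used. The gene annotation release and the strand setting of the counting are not given in the sources used here. The deposited table of whole, not normalized counts was the input of all tests. The second deposited table holds a normalized signal, which equals the counts of 19904 genes divided by 1 size factor per library, and was used to check the first.

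Groups came from the sample titles. Genes with 2 or more counts in total were normalized by TMM and fitted in edgeR 4.0.16 (R 4.3.3) with 1 mean per group. The quasi-likelihood test was used, with Benjamini-Hochberg adjustment over all genes and a threshold of 0.05. The SE was derived from F (log2 fold change over its square root), and the 95% intervals use the degrees of freedom of that test. Log2 CPM used a prior count of 2. Correlations were tested with 100000 permutations within groups. The pipeline was tested on simulated counts. Depth (31.8 M to 101 M counts) limits the precision of the genes with few counts. The common biological coefficient of variation over all genes was 19.4%. The spread of single genes differed, with control means of 23.2 ± 13.2 CPM (SD, n = 8) for Mx2 and 20.6 ± 4.53 CPM for Ifit2.

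The 9 genes, the gene lists and the tests were chosen with earlier results of these data known. Of each list, up to 2 called genes per direction and comparison with the smallest p were named with values, besides the 10 genes with the highest and the 2 with the lowest correlation with the 9. Where few genes of a list were called, the others were named after their values were seen. Alternatives were the size factors and the Wald test of DESeq2 1.42.0 (its likelihood ratio test for any difference), filterByExpr or no filter, counts thinned to the smallest library, a replicate block, fits of only the groups compared, exact dose ratios, and each rat left out. The order of the group means without THI replicate 1 was added after the values were seen. Outside the replicate block, the replicate numbers served only to name the rats, and the labels do not say what they stand for. Promoter windows came from RefSeq (GRCr8), and gene positions on Rnor_5.0 were not used here.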

Additional observations from a re-analysis of the deposited data

Results flagged for a closer look

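In groups of 4 to 10 rats, the gap between the highest or lowest rat and its neighbour was compared with the range of the group by Dixon's criterion, for the log2 CPM of each of the 9 genes. Of 54 groups of values, 1 exceeded the critical value. Ifit2 in IMZ replicate 1 (28.1 CPM, compared with 21.4, 21.5 and 21.4 CPM in the other 3 rats on IMZ) had a gap of 0.986 of the range, where 0.829 is the critical value for 4 rats. Chance flags about 1 in 20 groups. THI replicate 1, the highest rat for 8 of the 9 genes, did not exceed it.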

How the results depend on the processing

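Under the alternatives, 2385 fold changes of the 9 genes against control were recomputed, for the 6 treatments and their mean. Of these, 2346 kept their direction or stayed uncalled on the same side of the threshold, 26 lost significance, 13 gained it and 0 called changes turned in direction. The dose-weighted sums and the comparisons between mixtures were not among them. For these, only the number of genes called is given below. The number of genes called for THI + IMZ was 5 with the size factors of DESeq2, with filterByExpr, with no filter, with thinned counts and with a fit of only the 2 groups. It was 8 with the Wald test of DESeq2 and ranged from 1 to 7 with 1 rat left out. For the mean of the 6 treatments DESeq2 called 2 (Mx2 and Isg15), and the range with 1 rat left out was 0 to 3. Against the dose-weighted sum of THI and IMZ, DESeq2 called 8 and edgeR 0 to 4 with 1 rat left out, and for THI + IMZ against THI + CTD DESeq2 called 1. For any difference among the groups the range was 4 to 8, with 4 reached without THI + IMZ replicate 2 or 3. In the 8 controls alone 4 relations with Irf7 passed, and 7 to 8 with 1 rat left out. Single genes lost their call for THI + IMZ more often than the count shows. Mx1 was not called in edgeR without control replicate 3, 6, 7 or 8 (adjusted p = 0.0614, 0.0556, 0.0833 and 0.0665) or without THI + IMZ replicate 2, 3 or 4 (0.126, 0.147 and 0.102), and Irf7 was not without THI + IMZ replicate 3 (0.0642). Oasl lost its call without control replicate 7 (0.0542) or THI + IMZ replicate 1, 2, 3 or 4 (0.0518, 0.083, 0.095 and 0.0692). Isg15 lost it without control replicate 7 (0.0522) or THI + IMZ replicate 1, 2 or 3 (0.079, 0.0971 and 0.0806).

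The labels do not say what the replicate numbers stand for. Correlations of the deviations of rats with the same number had a median of 0.023 (from -0.272 to 0.419) and exceeded 0.1 in 20 of 78 pairs. For rats with different numbers the median was -0.00931. These values do not decide whether the numbers mark a block. With the number as a replicate block, 0 of the 9 genes were called for THI + IMZ, 0 for the mean of the treatments, 6 for any difference and 1 for CTD (Ifit2, 0.52, adjusted p = 0.0433).

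Counts over all genes moved more. With DESeq2 there were 199 genes for THI instead of 108, 150 for IMZ instead of 50, 435 for THI + IMZ instead of 235, 1386 for THI + CTD instead of 873, 567 for IMZ + CTD instead of 290 and 3329 for any difference instead of 1893. Between the mixtures DESeq2 gave 227 instead of 34 at equal THI and 78 instead of 13 at equal IMZ. The replicate block gave 45, 23, 53, 348, 80 and 1216 in the order of the first 6, and 1571 for CTD instead of 2518, 240 for the mean of the treatments instead of 1143, and 16 and 6 between the mixtures. The fit of only the groups compared gave 93 for IMZ, no filter 22 at equal THI and thinned counts 7 at equal IMZ. Against the dose-weighted sums DESeq2 gave 54 for THI + IMZ instead of 3, 174 for THI + CTD instead of 57 and 603 for IMZ + CTD instead of 230. With 1 rat left out, the counts ranged from 67 to 120 for THI, 28 to 61 for IMZ, 1470 to 2573 for CTD, 143 to 297 for THI + IMZ, 450 to 969 for THI + CTD, 98 to 366 for IMZ + CTD, 0 to 109 at equal THI, 1 to 43 at equal IMZ, and 1 to 9, 30 to 75 and 66 to 285 against the 3 sums. The lowest counts for the treatments were those without THI replicate 1, IMZ replicate 3, CTD replicate 1, THI + IMZ replicate 4, THI + CTD replicate 3 and IMZ + CTD replicate 3. The causes were not tested.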

Other observations

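Other members of the lists passed the test in edgeR outside THI + IMZ. The share of sensors and adaptors called was near that of all genes. It was 15% compared with 12.7% for CTD, 5% compared with 4.39% for THI + CTD, and 5% compared with 5.74% for the mean of the 6 treatments. For that mean, 6.78% of the effector genes and 20% of the receptors and transducers were called. Irak1, a kinase of Toll-like receptor signaling, was higher with CTD (log2 fold change 0.23 ± 0.07, adjusted p = 0.0319), with THI + CTD (0.28 ± 0.07, adjusted p = 0.00926) and over the mean of the 6 treatments (0.24 ± 0.05, adjusted p = 0.00135). With CTD, Tlr3, the endosomal sensor of double-stranded RNA, was higher (0.31 ± 0.11, adjusted p = 0.0445) and Traf6 lower (-0.50 ± 0.16, adjusted p = 0.0404). Over the mean of the 6 treatments Oas1b (-0.76 ± 0.22, adjusted p = 0.0381), Slfn5 (-0.39 ± 0.11, adjusted p = 0.0357), Irf8 (-0.47 ± 0.09, adjusted p = 0.0017) and Irf5 (-0.36 ± 0.10, adjusted p = 0.0321) were lower.

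Of 6 B and plasma cell markers 1 was called with CTD and with THI + CTD (12.7% and 4.39% of all genes), and of 15 T and NK cell markers 0 and 1. With IMZ + CTD, 0 of either list were called by edgeR, compared with 1.46% of all genes. Of the B and plasma cell list 3 (50%) and of the T and NK cell list 4 (26.7%) had an unadjusted p under 0.05, compared with 12.8% of all genes. Cd22 of B cells was lower with CTD (-0.99 ± 0.22, edgeR adjusted p = 0.00213) and THI + CTD (-1.03 ± 0.19, adjusted p = 0.00167), and Cd4 with THI + CTD (-0.56 ± 0.12, adjusted p = 0.00469). In controls Cd4 averaged 18.67 CPM, compared with 0.0209, 0.0553 and 0.0458 CPM for Cd3d, Cd3e and Cd3g of the same list. Which cells gave the Cd4 signal was not tested. The endothelial marker Kdr was lower in both (-0.58 ± 0.10 and -0.34 ± 0.09, adjusted p = 0.000106 and 0.0185).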
